A study of Homo sapiens with 12 samples.

Results

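Noncoding small nucleolar RNA (snoRNA) host genes were examined across control and GFI1-expressing A549 cells, attached or floating. The 10 genes were taken by gene name from the 58735 rows of the count table, namely GAS5, SNHG1, SNHG3, SNHG5, SNHG6, SNHG7, SNHG8, SNHG12, SNHG15 and SNHG16. All 10 passed the filter on low counts that left 17829 genes for testing, and each held between 212 and 3070 counts in every library. A549 is a human lung adenocarcinoma line that normally grows as a sheet on the dish, and GFI1 is a transcriptional repressor with zinc fingers, best known from the differentiation of blood cells. The study asked how this factor changes cancer cells that lose contact with a substrate. RNA-Seq gave 4 groups of 3 libraries: attached control A549, attached GFI1-expressing A549, and the same cells kept in forced suspension for 48 hours, called floating control and floating GFI1. GFI1 was delivered by a lentivirus with an hPGK promoter and a GFP marker, and the paper's methods state that GFP-positive sorted cells were sequenced. Whether the controls had received an empty vector is not stated in the labels. The paper's methods mention A549 cells with an empty vector for the animal experiments and name none for the sequenced controls. A GFI1 effect here therefore includes any effect of transduction or sorting that the GFI1 cells alone may have undergone.

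A snoRNA host gene is transcribed as a longer precursor whose introns carry snoRNAs. After splicing, the introns are processed into snoRNAs, which guide the modification and cleavage of ribosomal RNA in the nucleolus. The spliced exons of a noncoding host encode little or no protein, and many are short-lived because ribosomes engage them and nonsense-mediated decay removes them. Several hosts belong to the terminal oligopyrimidine (TOP) class, whose transcripts start with a C followed by a run of pyrimidines. This is the class of the ribosomal protein mRNAs, and its translation is controlled by mTORC1 and the RNA-binding protein LARP1. GAS5 was named for its accumulation in growth-arrested cells, where slower translation spares its transcripts from decay.

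The first bases of the annotated transcripts were read to check the TOP label. In GENCODE v44 on GRCh38, 74 of the 347 transcripts of these genes (21.3%) began with a C followed by at least 4 pyrimidines, compared with 2.61% of all 252835 transcripts and 25.3% of the 839 transcripts of cytosolic ribosomal proteins. GAS5 alone gave 50 of these 74 transcripts. At least 1 transcript with such a start was found for 8 of the 10 genes. This held for 7 of the 9 members with at least 8 transcripts and for 27.1% of all genes with at least 8 transcripts. Beyond that floor the genes were not matched for number of transcripts. GAS5, SNHG5 and SNHG1 had 91, 89 and 80, which makes at least 1 such start more likely. SNHG7 and SNHG15 had no such start, so the TOP label could apply to at most 8 genes by this reading. The set is therefore called noncoding snoRNA hosts here. GAS5 had 50 such starts among 91 transcripts, SNHG6 had 5 of 8, SNHG12 had 6 of 19, SNHG8 had 5 of 15, SNHG3 had 1 of 3 and SNHG16 had 3 of 18. Annotated starts of SNHG5 (3 of 89, 3.37%) and SNHG1 (1 of 80, 1.25%) rarely fell on such a tract, against 2.61% of all transcripts. The most frequent annotated start of each gene except SNHG6 follows, 5′ to 3′ on the gene's strand, because the tract is what places a host in the TOP class. Capitals mark the first run of a C and at least 4 pyrimidines within the 30 bases, and sequences without capitals hold none. The 3 transcripts of SNHG3 each start at a different base, and the start shown was taken because it holds the tract. The other starts shown are shared by 2 (SNHG15) to 61 (SNHG5) transcripts of the gene, with 12 bases compared.
GAS5 (chr1:173867960-173867989, minus): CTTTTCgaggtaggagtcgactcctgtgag
SNHG12 (chr1:28581844-28581873, minus): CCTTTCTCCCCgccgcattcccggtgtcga
SNHG3 (chr1:28506043-28506072, plus): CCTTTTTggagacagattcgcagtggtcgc
SNHG8 (chr4:118278758-118278787, plus): CTTTCacattcgggaagcgtcgggattagg
SNHG16 (chr17:76557766-76557795, plus): gttCTTTTCgaggtcggccgcgtggctgga
SNHG5 (chr6:85678719-85678748, minus): gctgcgcacttcggtCTTTTacgtcggcct
SNHG1 (chr11:62855856-62855885, minus): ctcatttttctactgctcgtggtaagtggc
SNHG7 (chr9:136728155-136728184, minus): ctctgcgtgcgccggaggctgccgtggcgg
SNHG15 (chr7:44986639-44986668, minus): ggcgcagcgcgcggcgtcagtcttggctgg

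In GAS5, SNHG3, SNHG8 and SNHG12 the tract opened the transcript. In SNHG16 it began at position 4, counted from the first base, and in SNHG5 at position 16. Annotated 5′ ends can differ from the ends used in these cells, which the count table does not show. A tract anywhere in the first 30 bases was present in 70.3% of the members' transcripts and in 31.9% of all transcripts. GAS5, SNHG5 and SNHG1, with 91, 89 and 80 annotated transcripts, weigh most in the share of the members.

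Few counts were assigned to the snoRNAs themselves. The count table held 25 snoRNA rows on the same strand within 9 of the 10 hosts. Of these, 22 had no count in any library, and all 22 lie wholly inside an exon of a host transcript in GENCODE v44. SNORA73B within SNHG3 had 197 counts over the 12 libraries, SNORD99 within SNHG12 had 35, and SNORD1B within SNHG16 had 33. None of these 3 rows lies wholly inside such an exon, though a partial overlap was not checked. Of all 943 snoRNA rows in the table, 60.1% were at 0 in every library. The libraries were made from polyadenylated RNA, and how reads that overlap both a snoRNA and a host exon were counted is not given in the sources used here. The part of either in these counts was not tested. The values below describe the rows of the host genes, and the level of the snoRNAs cannot be read from them.

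Libraries held between 17014188 and 20748677 counts, and levels are given as CPM after TMM scaling, which makes libraries of different depth comparable. GFI1 checked the labels: it was at 0.238 to 0.710 CPM in the 6 control libraries and at 285 to 704 CPM in the 6 GFI1 libraries. Its level in the floating GFI1 libraries was higher and less even (544, 704 and 429 CPM) than in the attached ones (289.9, 294 and 285 CPM). GFI1 itself was thus 1.93-fold higher in floating than in attached GFI1 cells (log2 fold change 0.95 ± 0.10, SE, adjusted p 2.38e-08 by edgeR). Comparisons with floating GFI1 cells therefore also hold a higher level of GFI1, and its part in the results was not tested. Floating GFI1 replicates 2 and 3 differed most among all replicate pairs, with a chi-square per gene of 11.9 against a lowest value of 2.01. The labels do not say whether replicates came from separate cultures, so the p-values measure the spread between these libraries, which may be technical. Of the 10 epithelial and A549 markers, KRT8 and KRT18 were abundant (5760 and 2670 CPM in attached control cells), while EPCAM was at 2.24 CPM or lower in the mean of each group. The summed level of the 10 markers was 21900 to 23100 CPM in attached control, 19900 to 20500 in floating control, 9630 to 9880 in attached GFI1 and 7540 to 8750 in floating GFI1 libraries. Markers of other cell types were low but not even across groups. The 6 endothelial markers summed to 0.325 to 1.09 CPM in attached control, 0.566 to 0.842 in floating control, 4.10 to 5.40 in attached GFI1 and 5.07 to 5.66 CPM in floating GFI1 libraries, and both of those that passed the filter rose with GFI1 in each state (log2 fold changes from 2.56 to 5.27). CDH5, which encodes the endothelial VE-cadherin, was at means of 0.0949 CPM in attached control, 3.24 in attached GFI1, 0.0981 in floating control and 4.02 CPM in floating GFI1 cells. CLDN5, another endothelial marker, went the other way, at means of 0.403, 0.26, 0.174 and 0.108 CPM in these groups. The 8 fibroblast markers summed to 13.5 to 15.7 CPM in attached control, 10.8 to 11.9 in floating control, 10.4 to 11.4 in attached GFI1 and 7.87 to 10.5 CPM in floating GFI1 libraries. PDGFRB among them was at 0.133 CPM in attached control and 2.22 CPM in attached GFI1 cells, while DCN was at 0 in every group. COL1A1, the most abundant of them, was lower with GFI1. It was at 13.0 and 6.36 CPM in attached control and GFI1 cells and at 9.21 and 3.46 CPM in floating control and GFI1 cells. The 8 blood markers summed to 4.50 to 7.11 CPM in attached control, 10.5 to 13.9 in floating control, 4.44 to 5.40 in attached GFI1 and 6.56 to 7.82 CPM in floating GFI1 libraries. CD14 made up most of these sums, at means of 5.36 CPM in attached control, 4.48 in attached GFI1, 12.3 in floating control and 6.93 CPM in floating GFI1 cells. It was the only blood marker that passed the filter, and CD3E was at 0 in every group. The part of these shifts in the results was not tested.

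GFI1 expression lowered most of the noncoding hosts in attached cells. In the quasi-likelihood test of edgeR, with Benjamini-Hochberg adjustment over all 17829 genes, 9 of 10 fell, 0 rose and SNHG8 did not pass the threshold (adjusted p of 0.05 or less). Of all genes, 62.3% passed in this comparison, 32.8% as lower and 29.5% as higher. The median log2 fold change of the 10 hosts was -0.54, with a range from -0.89 to -0.22, while the median over all genes tested was -0.01. For 9 of 10 hosts the CPM values of the 3 GFI1 and 3 control libraries did not overlap, compared with 67.0% of all genes. Summed over the 10 genes, the level was 660.0 ± 24.6 CPM in the attached controls and 444 ± 14.3 CPM with GFI1 (SD, n = 3 each). In bulk RNA, fewer cells carrying a transcript and less of it per cell cannot be told apart.

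**Figure D1:**
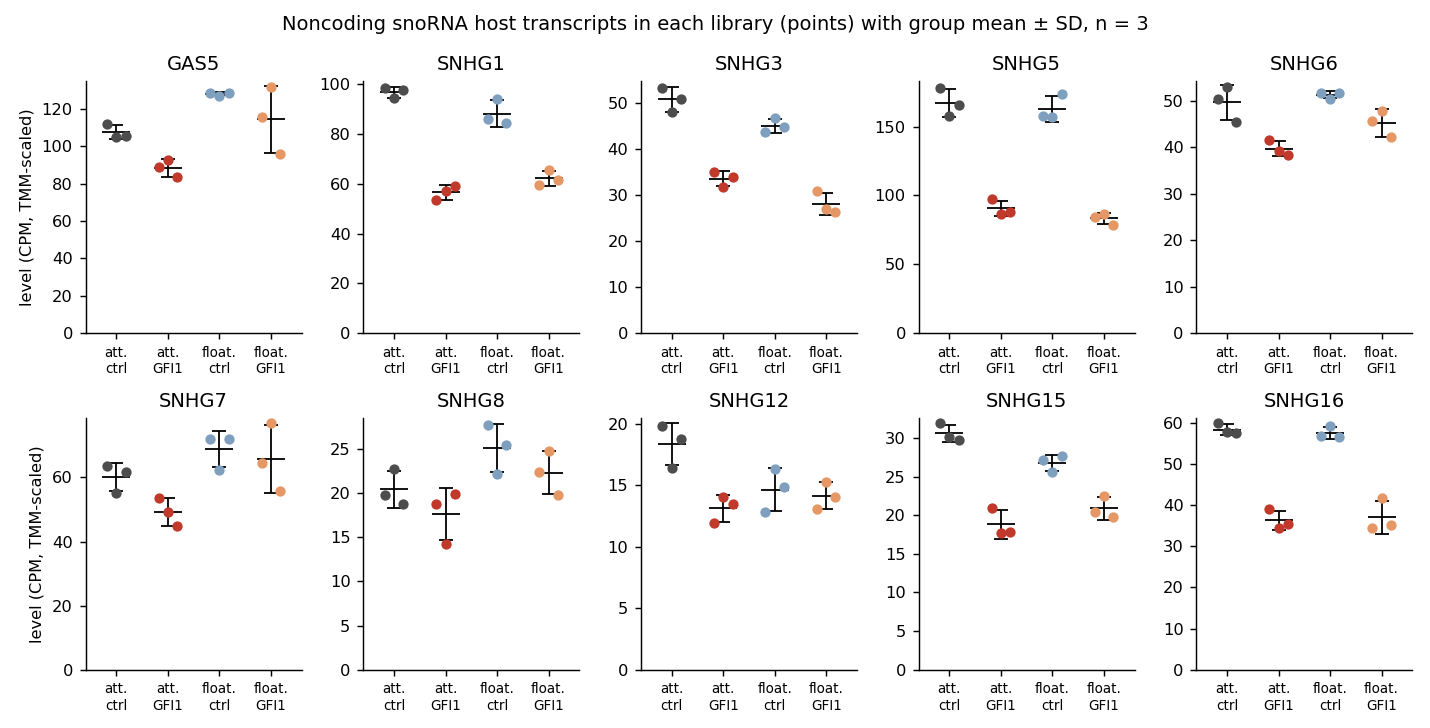
Level of each noncoding snoRNA host gene in CPM (TMM-scaled, axes from 0) in the 12 libraries. Points are single libraries of attached (att.) or floating (float.) control (ctrl) or GFI1-expressing cells, and black bars give the mean ± SD of the 3 libraries of a group. In each state the GFI1 libraries of SNHG1, SNHG3, SNHG5, SNHG6, SNHG15 and SNHG16 lay below the control libraries of that state, whereas those of SNHG8 overlapped with the controls.

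SNHG5, which hosts the SNORD50 snoRNAs, carried the largest part of the decrease. It was at 178, 158 and 166 CPM in the attached control libraries and at 97.1, 86.3 and 88.2 CPM in the attached GFI1 libraries. In floating cells the control libraries read 158, 157 and 174 CPM and the GFI1 libraries 84.4, 86.7 and 78.8 CPM. The groups were far apart in both states. With GFI1, SNHG5 was 1.85-fold lower while attached (log2 fold change over control -0.89 ± 0.05, SE, adjusted p 3.15e-13) and 1.96-fold lower when floating (-0.97 ± 0.06, adjusted p 6.77e-14). The share of SNHG5 in the summed level of the 10 hosts was 25.3% ± 0.7 in attached control, 20.4% ± 0.7 in attached GFI1, 24.3% ± 1.0 in floating control and 16.9% ± 0.8 in floating GFI1 cells (SD, n = 3 each).

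SNHG1, the host of a run of C/D box snoRNAs that includes SNORD22 and SNORD25 to SNORD30, fell next. Attached control libraries held 98.7, 94.4 and 97.6 CPM of SNHG1, and attached GFI1 libraries held 53.5, 57.0 and 59.2 CPM. Floating control libraries were at 86.0, 94.3 and 84.3 CPM and floating GFI1 libraries at 59.7, 65.4 and 61.5 CPM. Again no GFI1 library reached a control library. SNHG1 was 1.71-fold lower with GFI1 while attached (log2 fold change -0.77 ± 0.05, adjusted p 1.53e-12) and 1.42-fold lower when floating (-0.50 ± 0.05, adjusted p 6.09e-09).

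SNHG16, which carries the SNORD1 family, was at 59.9, 57.6 and 57.5 CPM in attached control and 39.0, 34.5 and 35.3 CPM in attached GFI1 libraries. Its floating libraries read 56.8, 59.3 and 56.5 CPM in control and 34.3, 41.7 and 35.2 CPM in GFI1 cells. The decrease was 1.61-fold while attached (log2 fold change -0.69 ± 0.06, adjusted p 7.55e-10) and 1.55-fold when floating (-0.63 ± 0.06, adjusted p 3.79e-09). The levels in both states separated control from GFI1 libraries without overlap.

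SNHG15, host of SNORA9, was at 31.9, 30.1 and 29.8 CPM in attached control libraries and at 20.9, 17.7 and 17.8 CPM in attached GFI1 libraries. In suspension its control libraries were at 27.2, 25.6 and 27.6 CPM and its GFI1 libraries at 20.4, 22.5 and 19.7 CPM. SNHG15 has no annotated TOP start, and it was lower with GFI1, with log2 fold changes of -0.71 ± 0.08 while attached (adjusted p 9.74e-09) and -0.36 ± 0.08 when floating (adjusted p 0.000215). The floating groups stood closer together than the attached groups, without overlapping.

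SNHG3 hosts SNORA73A and SNORA73B, the U17 RNAs of 18S rRNA processing. It was at 53.3, 48.0 and 50.9 CPM in attached control, 35.0, 31.8 and 33.9 CPM in attached GFI1, 43.7, 46.7 and 44.8 CPM in floating control and 30.8, 27.0 and 26.4 CPM in floating GFI1 libraries. Each GFI1 group lay below its control group. The log2 fold changes were -0.60 ± 0.06 in attached cells (adjusted p 6.67e-09) and -0.68 ± 0.06 when floating (adjusted p 1.21e-09). SNHG3 lies wholly within the gene RCC1 on the same strand. RCC1, which encodes the exchange factor of the GTPase Ran, was itself at 109 ± 4.4 CPM in attached control and 69.5 ± 2.0 CPM in attached GFI1 cells (SD, n = 3 each, log2 fold change -0.65 ± 0.05, adjusted p 9.88e-12). How reads of the shared region were divided between both genes was not tested, so the value of SNHG3 is uncertain to that extent.

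SNHG12, SNHG6, SNHG7 and GAS5 fell by less in attached cells. SNHG12, a host of several H/ACA box snoRNAs, was at 19.8, 16.4 and 18.8 CPM in attached control libraries and 11.9, 14.0 and 13.4 CPM in attached GFI1 libraries. In floating cells its control libraries were at 12.8, 16.3 and 14.9 CPM and its GFI1 libraries at 13.1, 15.3 and 14.1 CPM. The attached groups did not overlap (log2 fold change -0.48 ± 0.10, adjusted p 0.000168), whereas the floating groups lay on top of each other (-0.05 ± 0.10, adjusted p 0.696). SNHG12 was the least abundant host per length and the one with the fewest counts, from 212 to 333 in a library.

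SNHG6, the host of SNORD87 on chromosome 8, was at 50.4, 53.0 and 45.5 CPM in attached control and 41.5, 39.1 and 38.4 CPM in attached GFI1 libraries. Its floating control libraries read 51.6, 50.4 and 51.8 CPM and its floating GFI1 libraries 45.6, 47.9 and 42.1 CPM. The groups were separate in both states but by a small gap. The log2 fold change was -0.32 ± 0.06 in attached cells (adjusted p 4.88e-05) and -0.18 ± 0.06 when floating (adjusted p 0.0108). Without floating GFI1 replicate 3, the floating value was -0.13 and no longer passed (adjusted p 0.0743), nor did it pass with upper quartile (adjusted p 0.0547) or total-count scaling (adjusted p 0.441).

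GAS5 was at 112, 105 and 106 CPM in attached control libraries and at 88.8, 93.0 and 83.4 CPM in attached GFI1 libraries. In floating cells it was at 129, 127 and 129 CPM in control and at 116, 132 and 95.7 CPM in GFI1 libraries. The attached groups were separate (log2 fold change -0.28 ± 0.07, adjusted p 0.00134), though scaling by total counts alone ended this call (adjusted p 0.0935). The floating GFI1 libraries were widely spread, with replicate 2 above every floating control library, and the floating value of -0.17 ± 0.07 passed narrowly (adjusted p 0.0433). That call was lost without any floating control library, attached control replicate 3, attached GFI1 replicate 1 or floating GFI1 replicate 1 (adjusted p 0.0512 to 0.0884), and without floating GFI1 replicate 3 the value was -0.05 (adjusted p 0.428). Reads of GAS5 may also include some from ZBTB37, which overlaps 16.1% of its span on the opposite strand, because the strand setting of the counting is not given in the sources used here.

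SNHG7, which hosts the SNORA17 RNAs and has no annotated TOP start, was at 63.7, 55.1 and 61.7 CPM in attached control and 53.6, 49.1 and 44.7 CPM in attached GFI1 libraries. Its floating libraries were at 71.9, 62.3 and 72.1 CPM in control and 64.4, 77.0 and 55.7 CPM in GFI1 cells. As with GAS5, floating GFI1 replicate 2 was above and replicate 3 below the floating controls. The log2 fold change was -0.29 ± 0.09 in attached cells (adjusted p 0.00539), a call lost with robust empirical Bayes estimates of the spread (adjusted p 0.0746) or total-count scaling (adjusted p 0.145), and -0.07 ± 0.08 when floating (adjusted p 0.509). FAM69B overlaps 39.4% of SNHG7 on the opposite strand.

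SNHG8, the host of SNORA24, was the exception in attached cells. It was at 19.8, 22.7 and 18.7 CPM in attached control, 18.7, 14.2 and 19.9 CPM in attached GFI1, 27.6, 22.2 and 25.4 CPM in floating control and 22.4, 24.7 and 19.8 CPM in floating GFI1 libraries. Groups overlapped in both states. Its log2 fold changes with GFI1 were -0.22 ± 0.11 in attached cells (adjusted p 0.0914) and -0.17 ± 0.11 when floating (adjusted p 0.169). Without attached GFI1 replicate 3 the attached value was -0.32 and passed the threshold (adjusted p 0.0254), so SNHG8 cannot be said to differ from the other hosts in this respect.

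In floating cells, 7 of 10 hosts fell with GFI1 and 0 rose, and SNHG7, SNHG8 and SNHG12 did not pass. Of all genes, 60.4% passed in this comparison, 31.1% as lower and 29.3% as higher. The median log2 fold change of the hosts was -0.27, with a range from -0.97 to -0.05, against 0.01 over all genes, and for 6 of 10 hosts the groups did not overlap (64.4% of all genes). The summed level was 668 ± 9.9 CPM in floating control and 493 ± 45.7 CPM in floating GFI1 cells (SD, n = 3 each). Leaving out single libraries moved the number of hosts that fell from 5 to 9. All 10 point estimates were below 0 in both states, although those of SNHG7 and SNHG12 in floating cells turned to 0.06 and 0.08 when libraries were scaled by their total counts alone. That scaling moved the median of all genes to 0.14.

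**Figure D2:**
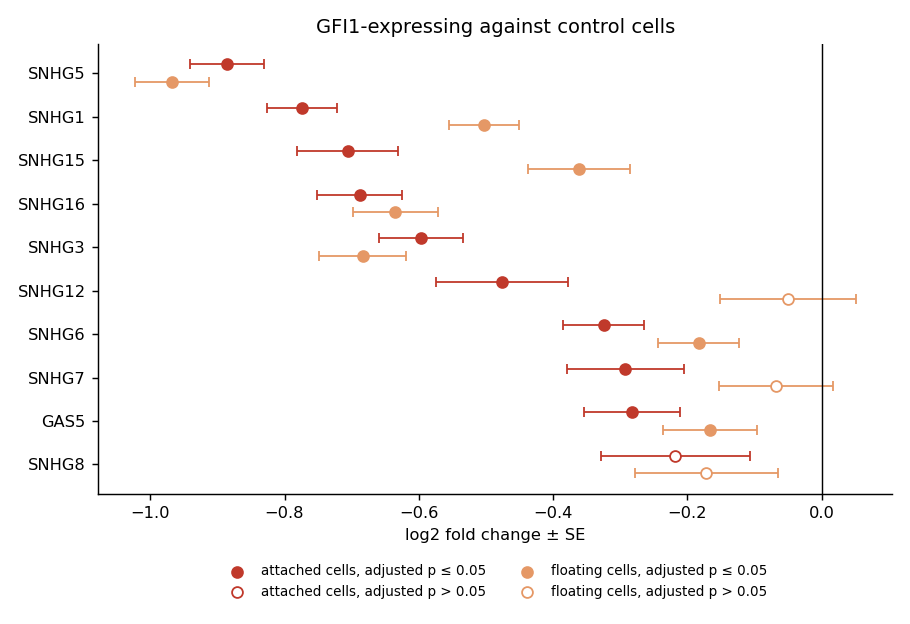
Log2 fold change ± SE of GFI1-expressing over control cells for each noncoding snoRNA host in attached (red) and floating (orange) cells. Filled points passed an adjusted p of 0.05 by edgeR and open points did not. SNHG5 had the lowest value in both states (-0.89 and -0.97), and SNHG12 went from -0.48 in attached to -0.05 in floating cells.

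The extent of the decrease did not follow the annotated TOP starts in any simple order. SNHG5 and SNHG1, which had few such starts, fell most in attached cells. GAS5 had the second highest share of them (54.9%) after SNHG6 (62.5%) and fell among the least. Of the hosts with none, SNHG15 fell strongly and SNHG7 fell among the least (-0.29 in attached cells). No test was made of this order, since only 10 genes were compared.

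Suspension moved the hosts in different directions. In control cells, GAS5 and SNHG8 rose, SNHG1, SNHG3, SNHG12 and SNHG15 fell, and the other 4 did not pass. In this comparison 40.1% of all genes passed, 19.6% as higher and 20.5% as lower. The hosts' median log2 fold change was -0.03, against 0.01 over all genes. These calls were fragile. Their number went from 6 to 1 without attached control replicate 1 or floating control replicate 1, to 2 without attached or floating control replicate 3, and to 3 by DESeq2. Scaling by upper quartile or by total counts alone gave 3 higher and 1 lower in place of 2 higher and 4 lower, and robust empirical Bayes gave 0 higher and 4 lower.

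The increase of GAS5 was the clearest in controls. All 3 floating control libraries (127 to 129 CPM) exceeded all 3 attached ones (105 to 112 CPM), and the log2 fold change of floating over attached was 0.25 ± 0.07 (adjusted p 0.00517). SNHG8 had a value of 0.30 ± 0.11 (adjusted p 0.0312) with groups that overlapped. Among the hosts that were lower, SNHG12 changed by -0.32 ± 0.10 (adjusted p 0.0109), SNHG15 by -0.19 ± 0.07 (adjusted p 0.0407), SNHG3 by -0.17 ± 0.06 (adjusted p 0.0282) and SNHG1 by -0.14 ± 0.05 (adjusted p 0.0355). For these 4 genes and GAS5, 5 of the 10 hosts, the attached and floating control libraries did not overlap, compared with 49.9% of all genes. SNHG5 (-0.04 ± 0.05, adjusted p 0.628) and SNHG16 (-0.02 ± 0.06, adjusted p 0.838), both strongly lowered by GFI1, had values near 0.

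In GFI1-expressing cells, GAS5, SNHG6, SNHG7 and SNHG8 rose with suspension, SNHG3 fell, and 5 hosts did not pass, where 31.3% of all genes passed (15.0% higher and 16.3% lower). The median of the hosts was 0.14 and that of all genes 0.00. SNHG7 rose by a log2 fold change of 0.42 ± 0.09 (1.34-fold, adjusted p 0.000473) and GAS5 by 0.37 ± 0.07 (1.29-fold, adjusted p 0.000215), and for both genes every floating GFI1 library exceeded every attached GFI1 library. Groups without overlap were found for 5 of the 10 hosts (also SNHG1, SNHG3 and SNHG6) and for 41.4% of all genes. These calls held in each alternative, although their size ran from 0.28 to 0.53 for SNHG7 and from 0.24 to 0.49 for GAS5 when single libraries were left out. SNHG8 changed by 0.34 ± 0.11 (adjusted p 0.0178) with overlapping groups and SNHG6 by 0.19 ± 0.06 (adjusted p 0.0194). The calls of SNHG6 and SNHG8 were lost without attached GFI1 replicate 2 or floating GFI1 replicate 1 or 2, and that of SNHG6 also without attached GFI1 replicate 3. SNHG3 fell by 0.26 ± 0.07 on the log2 scale (adjusted p 0.00364), a call that held in each alternative. RCC1, which encloses it, changed by -0.48 ± 0.05 in the same comparison (adjusted p 5.14e-08).

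**Figure D3:**
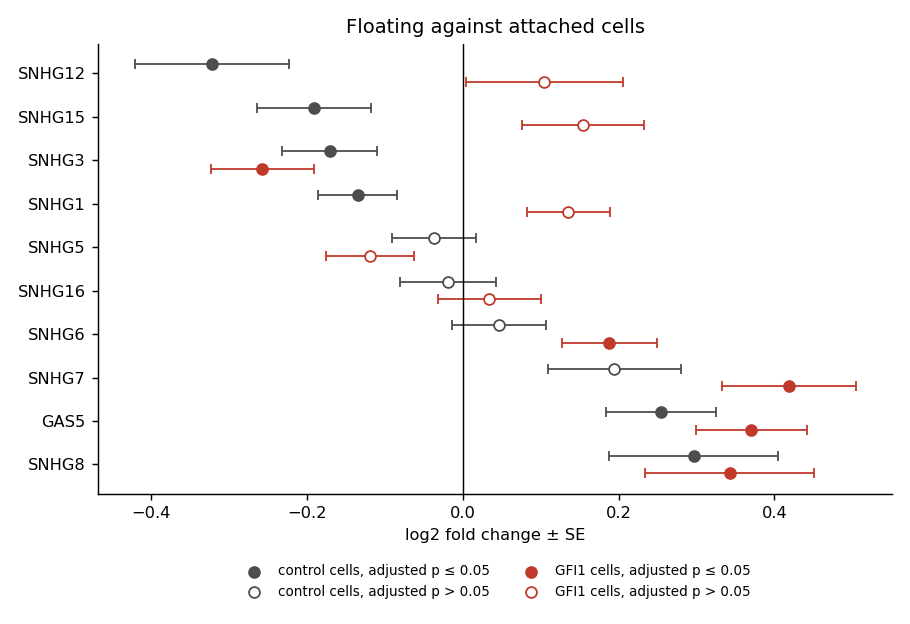
Log2 fold change ± SE of floating over attached cells for each noncoding snoRNA host in control (gray) and GFI1-expressing (red) cells. Filled points passed an adjusted p of 0.05 by edgeR and open points did not. GAS5 and SNHG8 were higher and SNHG3 was lower in both kinds of cells, whereas SNHG12, SNHG15 and SNHG1 had values below 0 in control and above 0 in GFI1 cells.

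Whether the suspension change differed between control and GFI1 cells was tested by the interaction term, which passed for 10.8% of all genes (4.76% positive and 6.01% negative). It passed for 2 hosts, SNHG1 (0.27 ± 0.07, adjusted p 0.0169) and SNHG15 (0.35 ± 0.11, adjusted p 0.0372). Both were lower in floating than in attached control cells, and had values of 0.14 ± 0.05 (adjusted p 0.056) and 0.15 ± 0.08 (adjusted p 0.143) in GFI1 cells, so their decrease with GFI1 was smaller in floating cells. SNHG12 had the largest difference of the hosts but just missed the threshold (0.43 ± 0.14, adjusted p 0.0529). The number of hosts that passed went from 2 to 1 by DESeq2, to 0 without floating GFI1 replicate 2 and to 4 without floating GFI1 replicate 3. It was 1 without replicate 1 of any group, without attached control replicate 3, without attached GFI1 replicate 3 or without floating control replicate 3. GAS5 (0.12 ± 0.10, adjusted p 0.545) and SNHG5 (-0.08 ± 0.08, adjusted p 0.591) did not pass.

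Levels per length put the hosts in a similar order in the groups. On the scale of CPM per kilobase of the deposited gene length, SNHG5 was highest in attached control cells (59.6), followed by SNHG6 (39.8), GAS5 (29.6), SNHG1 (25.8) and SNHG8 (22.1). SNHG7 (13.8), SNHG3 (12.4), SNHG16 (10.9), SNHG15 (8.39) and SNHG12 (4.30) came next. Of these neighbours, only SNHG7 and SNHG3 overlapped between libraries. In attached GFI1 cells SNHG5 (32.3) and SNHG6 (31.8) overlapped, and in floating GFI1 cells SNHG6 (36.2), GAS5 (31.5) and SNHG5 (29.7) were the 3 highest, each overlapping the next. The share of GAS5 in the summed CPM of the 10 hosts was 16.3% ± 0.1 in attached control, 19.9% ± 1.2 in attached GFI1, 19.2% ± 0.3 in floating control and 23.1% ± 1.6 in floating GFI1 cells (SD, n = 3 each). The deposited gene lengths covered from 15.8% of the genomic span (SNHG5) to 95.6% (SNHG1). The length of SNHG1 therefore includes sequence that some of its transcripts splice out.

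Other genes of the host, ribosome and snoRNA pathways were counted in the same fits, as lists without a set test. Of all genes, 62.3% were called with GFI1 in attached cells (32.8% lower, 29.5% higher) and 60.4% in floating cells (31.1% lower, 29.3% higher). With suspension, 40.1% were called in control cells (20.5% lower, 19.6% higher) and 31.3% in GFI1 cells (16.3% lower, 15.0% higher). Among 12 other noncoding snoRNA hosts that passed the filter, 6 fell and 1 rose with GFI1 in attached cells (median log2 fold change -0.35), and 6 fell and 1 rose in floating cells (median -0.31), so the number called was near the share of all genes and most of the calls were lower. SNHG4 fell to the largest extent, with 54.6 ± 5.6 CPM in attached control and 18.5 ± 1.4 CPM in attached GFI1 cells (SD, n = 3 each, log2 fold change -1.56 ± 0.07, adjusted p 1.14e-15), and SNHG14, the long host of the imprinted chromosome 15 snoRNA clusters, rose by 0.85 ± 0.05 (adjusted p 1.72e-14). EPB41L4A-AS1 rose with suspension in control (0.82 ± 0.10, adjusted p 2.03e-07) and in GFI1 cells (0.55 ± 0.09, adjusted p 5.09e-05).

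Ribosomal protein mRNAs, the main TOP class, fell almost as a block. Of 79 tested, 78 fell with GFI1 in attached cells (median -0.46) and 78 in floating cells (median -0.57), and 0 rose. RPS16, of the small subunit, changed by -0.69 ± 0.05 in attached (adjusted p 9.07e-13) and -0.92 ± 0.05 when floating (adjusted p 2.77e-15). Their median went further below 0 in floating cells while that of the noncoding hosts came closer to 0, and this difference between the lists was not tested. With suspension, 3 ribosomal protein genes rose and 8 fell in control cells (median -0.01), and 1 rose and 19 fell in GFI1 cells (median -0.09). Both numbers were below the share of all genes called (40.1% and 31.3%). The other TOP mRNAs, which encode translation factors and a few other proteins, had 14 of 17 lower and 0 higher in each state (medians -0.23 and -0.31). VIM, which encodes vimentin and is also a mesenchymal marker, had the largest decrease of these (-3.09 ± 0.11, adjusted p 3.69e-18, and -2.17 ± 0.10, adjusted p 1.88e-15).

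**Figure D4:**
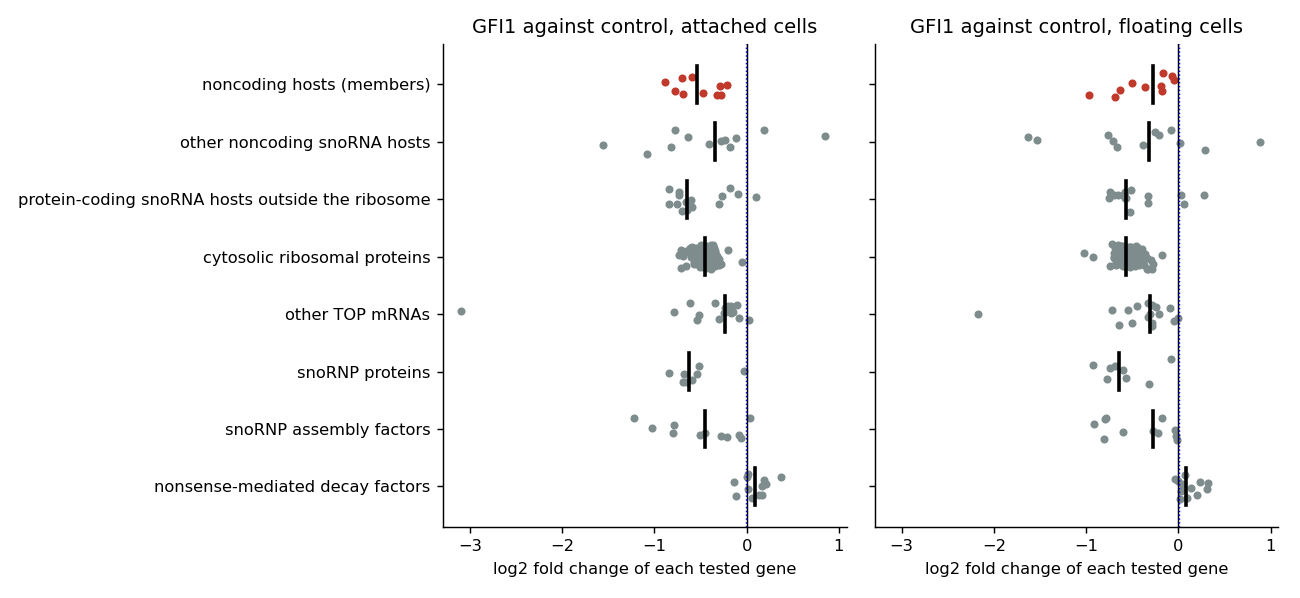
Log2 fold change of GFI1-expressing over control cells for each tested gene of the noncoding hosts (red) and of 7 related gene lists (gray), in attached (left) and floating (right) cells. Black bars are list medians and the blue dotted line is the median of all genes tested. Ribosomal protein genes lay to the left of 0 in both states, with medians of -0.46 and -0.57, and the noncoding hosts had medians of -0.54 and -0.27.

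Protein-coding hosts of snoRNAs outside the ribosome fell as well, with 13 of 15 lower and 0 higher with GFI1 in attached cells (median -0.65) and 12 lower and 1 higher in floating cells (median -0.56). NOP56, both a host and a core protein of C/D box snoRNPs, changed by -0.84 ± 0.04 in attached (adjusted p 2.47e-15) and -0.75 ± 0.04 when floating (adjusted p 4.6e-14). EIF4A1 was the member that rose in floating cells (0.28 ± 0.10, adjusted p 0.0165). With suspension in control cells 11 of the 15 fell and 0 rose (median -0.33), led by NCL, which encodes nucleolin (-0.47 ± 0.04, adjusted p 1.91e-09). In GFI1 cells 9 fell and 1 rose (median -0.17). The shares of all genes called as lower were 20.5% and 16.3%.

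Of the 8 snoRNP proteins, 7 fell with GFI1 in each state (medians -0.62 and -0.64). FBL, the methyltransferase fibrillarin, was at 425 ± 9.7 CPM in attached control, 264 ± 13.0 in attached GFI1, 469.7 ± 7.7 in floating control and 248 ± 8.2 CPM in floating GFI1 cells (SD, n = 3 each). Of 11 snoRNP assembly factors tested, 7 fell in attached cells (median -0.45) and 8 in floating cells (median -0.27), with 0 higher. TCOF1, the nucleolar protein treacle, changed by -1.22 ± 0.05 with GFI1 in attached cells (adjusted p 2.11e-17), and RUVBL1, an ATPase of the R2TP assembly complex, by -0.91 ± 0.05 when floating (adjusted p 3.65e-15).

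Factors that act on host transcripts moved less or in both directions. Of 12 nonsense-mediated decay factors, 6 rose and 1 fell with GFI1 in attached cells (median 0.09) and 5 rose and 0 fell in floating cells (median 0.09). The numbers called were below the share of all genes called, which was 62.3% in attached cells (29.5% as higher) and 60.4% in floating cells (29.3% as higher). The helicase UPF1, the central factor of this decay, changed by -0.11 ± 0.04 in attached cells (adjusted p 0.0245). With suspension 1 rose and 6 fell in control cells (median -0.13) and 0 rose and 4 fell in GFI1 cells (median -0.09). In these comparisons 40.1% and 31.3% of all genes were called, so the number in GFI1 cells was near that share. UPF1 was lower in both (-0.38 ± 0.04, adjusted p 1.02e-07, and -0.17 ± 0.04, adjusted p 0.0035). In the exon junction complex, 4 of 6 fell and 1 rose in attached cells and 3 fell and 2 rose in floating cells, with EIF4A3 lower in both (-0.36 ± 0.04, adjusted p 2.57e-08, and -0.36 ± 0.04, adjusted p 3.5e-08). Of 10 genes of 5′ to 3′ decay, 4 rose and 2 fell in attached cells and 3 rose and 2 fell in floating cells, again no more than the share of all genes. XRN1, the cytoplasmic 5′ to 3′ exonuclease that degrades decapped RNA, was at 38.5 ± 2.0 CPM in attached control and 81.6 ± 2.2 CPM in attached GFI1 cells (SD, n = 3 each, log2 fold change 1.08 ± 0.05, adjusted p 2.45e-15) and changed by 0.78 ± 0.05 when floating (adjusted p 1.29e-12).

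Among 17 regulators of TOP mRNAs and mTORC1, 4 rose and 7 fell with GFI1 in attached cells (median -0.10) and 6 rose and 6 fell in floating cells (median 0.01), a number of calls close to the share of all genes called. EIF4EBP1, a translational repressor that mTORC1 inactivates, had the lowest adjusted p, at 91.6 ± 5.4 CPM in attached control and 26.4 ± 2.5 CPM in attached GFI1 cells (SD, n = 3 each, log2 fold change -1.80 ± 0.07, adjusted p 6.89e-17). TIA1, an RNA-binding protein reported to bind TOP mRNAs, rose by 0.47 ± 0.04 in attached (adjusted p 5.86e-10) and 0.38 ± 0.04 when floating (adjusted p 2.98e-08). LARP1, which binds the TOP cap, fell with suspension in control cells (-0.39 ± 0.04, adjusted p 2.82e-08), with an interaction term of 0.25 ± 0.06 (adjusted p 0.00485). Of 9 tested genes of the MYC family and its partners, 6 rose and 1 fell with GFI1 in each state. The gene that fell was MYC, an activator of ribosome biogenesis genes, at 142 ± 7.8 and 62.5 ± 0.6 CPM in attached control and GFI1 cells and 116 ± 5.8 and 38.6 ± 2.1 CPM in floating control and GFI1 cells (SD, n = 3 each). Its log2 fold changes were -1.19 ± 0.05 (adjusted p 1.34e-16) and -1.59 ± 0.05 (adjusted p 1.16e-18), and whether it bears on the hosts was not tested.

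Among the genes whose pattern over the 12 libraries was nearest to the mean of the hosts were NACA, AP3S1, LCLAT1 and FBXO46, all protein coding. Nearness was the root-mean-square difference in centred log2 CPM, which was 0.0459 for NACA, 0.0487 for AP3S1, 0.0546 for LCLAT1 and 0.0551 for FBXO46, against a median of 0.323 over 13238 genes. The centred mean of the hosts was 0.23 in attached control, -0.29 in attached GFI1, 0.22 in floating control and -0.16 in floating GFI1 cells. These values describe 12 libraries that fall into 4 groups and were not tested.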

How the data were processed

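RNA was extracted with Trizol, selected by poly-A and sequenced on a NovaSeq system. The authors deposited raw counts of reads per gene (GRCh38) with gene coordinates and lengths. The paper's methods name Hisat2 and featureCounts, whereas the submitters' processing notes name Bowtie2 and HTSeq, and which made the counts could not be settled. The annotation release and strand setting are not given in the sources used here.

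The analysis used edgeR 4.0.16 under R 4.3.3 (filterByExpr, minimum count 10, minimum total 15; TMM; 1 quasi-likelihood model of 4 group means over 12 libraries, two-sided tests, Benjamini-Hochberg adjustment within each contrast, threshold 0.05, no fold threshold). Total counts were 17014188 to 20748677 per library. The code was tested on simulated data. Genes named are GFI1, the 10 hosts, for each list, contrast and direction the called gene of lowest adjusted p, and the 5 nearest patterns; overlapping genes and markers were named for their position or as checks, and FBL and RCC1 levels are given beyond that rule. Some genes that this rule selects are not reported here. Members, lists and tests were chosen with earlier results of these data known. Alternatives were DESeq2 1.42.0, RLE, upper quartile and total-count scaling, other filters, a fit of the compared groups alone, robust empirical Bayes, a replicate block and leaving out each library.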

Additional observations from a re-analysis of the deposited data

Results flagged for a closer look

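SNHG1 and SNHG15 stood out because their GFI1 effect differed between attached and floating cells by the test of the difference itself. The interaction term was 0.27 for SNHG1 and 0.35 for SNHG15 on the log2 scale, which means that both were lowered less by GFI1 in floating cells in the main analysis. These are 2 of 10 hosts, where 10.8% of all genes passed, and neither call held in every alternative. The SNHG1 call was lost without attached GFI1 replicate 1 (adjusted p 0.0552), floating control replicate 3 (adjusted p 0.0559) or floating GFI1 replicate 2 (adjusted p 0.062). That of SNHG15 was lost by DESeq2 (adjusted p 0.0621) and without any 1 of 9 libraries, with adjusted p up to 0.123.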

How the results depend on the processing

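Of 1040 values of single hosts under an alternative, 928 kept their direction and side of the threshold, 70 lost and 26 gained a call, and 16 changed sign, all of them uncalled in the main analysis. Of 9 attached GFI1 calls, 7 held in every alternative, as did 5 of 7 floating GFI1 calls (SNHG1, SNHG3, SNHG5, SNHG15 and SNHG16), 3 of 5 suspension calls in GFI1 cells, and 0 of 6 in control cells. Hosts called by DESeq2 were 3 for suspension in control cells and 1 for the interaction. Scaling by total counts alone moved the hosts' median to -0.39 (attached) and -0.14 (floating), with SNHG7 at 0.060 and SNHG12 at 0.079 in floating cells, because it shifts the median of all genes to 0.14. SNHG16 in suspended controls turned to 0.0015 with it and to 0.00058 with upper quartile scaling. Leaving out single libraries gave 1 to 7 calls for suspension in control cells, 3 to 6 in GFI1 cells and 0 to 4 for the interaction, medians from -0.34 to -0.23 (GFI1, floating) and from 0.031 to 0.21 (interaction), and ranges across 0 for the GFI1 effect in floating cells of SNHG7 (-0.19 to 0.040) and SNHG12 (-0.14 to 0.030), suspension in control cells of SNHG5 (-0.088 to 0.0084) and SNHG6 (-0.015 to 0.095), suspension in GFI1 cells of SNHG16 (-0.071 to 0.088), and the interaction of GAS5 (-0.017 to 0.23), SNHG8 (-0.085 to 0.15) and SNHG16 (-0.055 to 0.11). The causes were not tested. Same-numbered libraries did not deviate together (18 pairs, correlation -0.03 to 0.03, 3 of 12 libraries matched best with their own number). Deviations within groups of 3 libraries also hold count noise, so this cannot exclude that same-numbered libraries were prepared together. With the replicate block, 9, 7, 6, 5 and 2 hosts passed in the 5 contrasts, as without it.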
